A study of Mus musculus with 13 samples.

Results

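Ucp2 and 6 genes of mitochondrial fission and fusion (Dnm1l, Fis1, Mff, Opa1, Mfn1 and Mfn2) were followed in single hypothalamic microglia over the course of high-fat feeding. The genes were chosen by name for their role, with earlier results of these data known, and all 7 were among the 17280 genes used. No member passed the test at any length of high-fat diet (HFD), and Ucp2, the most abundant of them, had the narrowest intervals around the control level. Opa1 had the smallest p of the members, with lower values at 3 days that rested on few transcripts and did not pass the adjusted threshold.

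Mitochondria of most cells divide and fuse continuously. Dnm1l encodes DRP1, the dynamin-related GTPase that constricts the outer membrane, and Fis1 and Mff encode outer-membrane proteins to which DRP1 is recruited. Mfn1 and Mfn2 encode the mitofusins, GTPases that tether and fuse outer membranes, and Opa1 encodes the GTPase of the inner membrane that fuses it and shapes the cristae. Ucp2 encodes a carrier of the inner mitochondrial membrane that is abundant in macrophages and microglia and is linked to uncoupling and to the production of reactive oxygen species. The study examined mitochondrial changes of microglia soon after the start of HFD, so a question of these data is whether transcripts of these genes moved with the diet.

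The cells were microglia of male C57BL/6J mice, sorted singly from the hypothalamus as CD45lo CD11b+ cells into 13 plates and sequenced by CEL-Seq2, which counts 3′ ends of transcripts with unique molecular identifiers (UMIs). Mice had standard chow (NC) or HFD with 60% fat for 1 day, 3 days, 1 week, 4 weeks, 9 weeks or 16 weeks. A replicate is an identifier of the table of wells on 1 set of linked plates, and that table does not say whether an identifier is 1 mouse. The p-values by permutation measure the spread between identifiers. Those of edgeR rest on a spread between sums that is shared across genes. As 16 replicates gave sums on more than 1 plate, the edgeR p-values are likely too small. The 1617 cells with at least 1500 transcripts gave 44 replicates: 19 for NC, 6 for 1 day, 4 for 3 days, 5 for 1 week, 3 for 4 weeks, 2 for 9 weeks and 5 for 16 weeks. Summed over the cells of 1 replicate on 1 plate they made 68 sums of 22774 to 219199 transcripts. HFD and NC were compared within plates, since lengths lay on different plates: 1 day on plates 6 and 8, 3 days on plates 4, 5 and 13, and 9 weeks on plates 10 to 12. Plate 5 had no NC sum, and plate 4 had 1 NC sum of 7 cells. The weeks that the cell names carry on plates 4 to 13 are 9, 14 or 24, so these weeks moved with the plate, and on plate 13 the NC replicates carried both 14 and 24. Plate 1 held cells of 4 weeks of HFD. Its only control was an NC replicate whose cell names carry more than 1 number of weeks.

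The cells carried the defining genes of microglia. P2ry12, Cx3cr1 and Csf1r each had a UMI in 99.1% to 99.8% of cells. Monocyte and neutrophil genes were low in most sums, with their highest values on plates 4 and 5. The 2 monocyte genes in the data summed to at most 40.5 CPM (transcripts scaled to the depth of a sum) in NC sums and reached 595 CPM in a 3-day sum, 1073 CPM in a 1-week sum, 418 CPM in a 4-week sum and 221 CPM in a 16-week sum. The 1 neutrophil gene in the data was at 0 in all NC sums and reached 12949.7 CPM in a 4-week sum. The 4 genes of border macrophages in the data had a median of 16.1 CPM and a maximum of 117 CPM over NC sums, against medians of 36.6 CPM at 3 days, 48.7 CPM at 1 week and 58.9 CPM at 4 weeks and maxima of 330 CPM, 212 CPM and 287 CPM. The part of such cells in the results was not tested. Without plates 4 and 5 the log2 fold change turned sign in 5 of 7 members at 4 weeks, in 2 at 3 days, in 2 at 1 week and in 1 at 9 weeks. At 4 weeks only 1 sum of each diet, on plate 1, was then left.

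Over the 42 comparisons of 7 members with 6 lengths, 0 passed an adjusted p of 0.05 by edgeR's quasi-likelihood test with plate as a block and 4 had an unadjusted p under 0.05. The 4 were Opa1 at 3 days, Mfn2 at 9 and 16 weeks and Mff at 16 weeks. Over all genes, 5.74% had an unadjusted p under 0.05 at 3 days, 5.67% at 9 weeks and 4.83% at 16 weeks. Of the 11081 genes tested, 0% were called at 1 day (544 had an unadjusted p under 0.05), 0.0541% at 3 days, 0.0451% at 1 week, 0.0902% at 4 weeks, 0.0271% at 9 weeks and 0.0361% at 16 weeks. The test of any length called 0.199% of genes, and acute against chronic called 0%, where 706 genes had an unadjusted p under 0.05. Of the log2 fold changes of members, 22 of 42 were above 0. The median over all genes was 0.15 at 3 days and 0.11 for acute against chronic, so a member at 0 there lay below the middle of all genes; with DESeq2's size factors these medians were -0.04 and -0.03.

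Ucp2 was by far the most abundant of the genes. The gene lies on mouse chromosome 7 from 100493337 to 100502020 on the plus strand (GRCm38). Each molecule is counted once at its 3′ end, so levels of different genes are compared in CPM with no division by length. Ucp2 averaged 456 CPM over the 68 sums, which ranked it 235th of the 17280 genes, and 66.0% of cells had at least 1 UMI. With each cell thinned to 1500 UMIs the share was 45.3%. Of the 1067 cells with a UMI, 604 had more than 1, and the highest cell had 16. Among the 877 wells with fewer transcripts than the minimum but more than 0, 21.2% had a Ucp2 UMI.

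The dynamics genes followed at lower levels. Mff, on chromosome 1 from 82724890 to 82752394 (plus strand), averaged 127 CPM with a UMI in 28.3% of cells. Opa1, on chromosome 16 from 29579334 to 29654884 (plus strand), averaged 61.6 CPM with a UMI in 13.9% of cells. Fis1, on chromosome 5 from 136953275 to 136966234 (plus strand), averaged 55.6 CPM. Dnm1l, on chromosome 16 from 16312230 to 16358959 (minus strand), averaged 51.2 CPM, and the levels of Opa1, Fis1 and Dnm1l lay within the spread of their replicates. The mitofusins were lowest. Mfn1, on chromosome 3 from 32529465 to 32579239 (plus strand), averaged 22.2 CPM, and Mfn2, on chromosome 4 from 147873599 to 147904704 (minus strand), averaged 21.4 CPM. Mfn1 had no transcript in 18 of the 68 sums and Mfn2 none in 23. In 688 cells, 42.5% of all, no UMI of any of the 6 dynamics genes was found, and 274 cells had none of the 7 members.

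Over replicates the mean level was 436 ± 95.7 CPM for NC (SD, n = 19), 311 ± 66.7 for 1 day (n = 6), 447 ± 124 for 3 days (n = 4), 413 ± 129 for 1 week (n = 5), 440 ± 40.2 for 4 weeks (n = 3), 578 ± 14.8 for 9 weeks (n = 2) and 567 ± 80.2 for 16 weeks (n = 5). In the order of levels, 1 day was lowest and 9 weeks highest, and NC, 3 days, 1 week and 4 weeks lay within 1 SD of each other. Control levels of Ucp2 also varied between plates. NC sums averaged 330 CPM on plate 6 and 376 CPM on plate 8, which held the 1-day cells, against 502, 595 and 411 CPM on plates 10, 11 and 12, which held the 9-week cells. Plates 7 and 9, with the same 9 weeks in their cell names as plates 6 and 8, had 525.5 and 332 CPM in their single NC sums. On plate 13 the NC sums of 14 weeks were at 583 and 497 CPM and those of 24 weeks at 491 and 392 CPM.

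**Figure D1:**
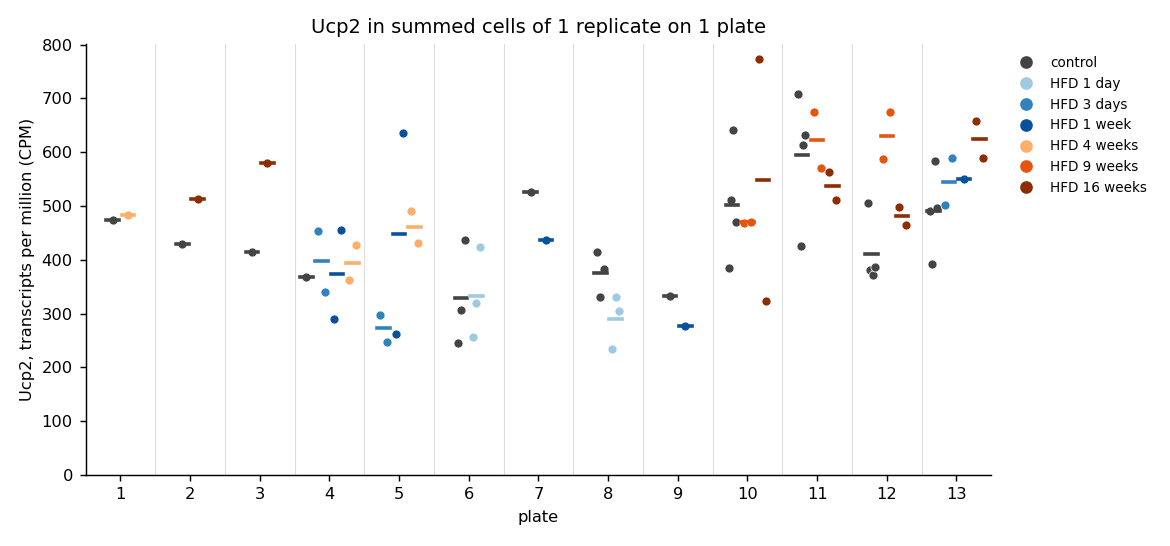
Ucp2 in CPM (vertical axis) in each of the 68 sums, by plate (horizontal axis) and diet (colour); short bars are means of a diet on a plate. Control sums on plates 6 and 8 lie lower than most of those on plates 10, 11 and 13, and on plates 6 and 10 the diets overlap.

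Within plates, the 95% interval of the Ucp2 difference spanned 0 at each of the 6 lengths. On plate 13 the 3-day sums were 502 and 589 CPM, and the 4 NC sums ran from 392 to 583 CPM. On plate 4 the 3-day sums were 341 and 454 CPM beside 369 CPM in the single NC sum, and on plate 5 they were 247 and 297 CPM with no NC sum. The diets thus overlapped on plate 13 and the 3-day sums lay on both sides of the control on plate 4. At 1 day 5 of 6 sums lay below the mean of the controls of their plate, and 18.9% of all genes tested had at least as many below. On plate 8 the 1-day sums were at 234, 330.7 and 305 CPM, below the NC sums at 414, 330.9 and 383 CPM as in 3.99% of genes, and on plate 6 the diets overlapped. At 16 weeks the mean was above the controls on 5 of 6 plates, and 9.84% of all genes tested were above on at least as many. The diets did not overlap on 3 of them, as in 7.66% of genes by the same count or more, and plates 2 and 3 each held 1 sum of the same 16-week replicate and 1 of the same NC replicate. Over plates 4 and 13 the 3-day mean was 41.4 CPM above that of NC, and a separate fit of these plates gave a log2 fold change of 0.10. The fit of all lengths also used the 3-day sums of plate 5, which stood there beside 1-week and 4-week sums only. In that fit the log2 fold change at 3 days was 0.00 with a standard error of 0.19, and its 95% interval ran from 0.77-fold to 1.30-fold. At 1 day it was -0.18 (SE 0.22), at 1 week 0.05 (SE 0.20), at 4 weeks 0.10 (SE 0.23), at 9 weeks 0.18 (SE 0.17) and at 16 weeks 0.09 (SE 0.14). The widest of these intervals reached from 0.65-fold to 1.19-fold at 1 day and from 0.79-fold to 1.46-fold at 4 weeks. All of them come from a fit whose p-values are likely too small. The intervals are therefore likely too narrow, and they cannot exclude larger shifts of Ucp2. The acute lengths (1 and 3 days) against the chronic lengths (4, 9 and 16 weeks) differed by -0.22 (SE 0.17), or by -0.09 without plates 4 and 5. At 1 week the log2 fold change of 0.05 turned to -0.23 without plates 4 and 5. It also lay below 0 under several settings that kept those plates. Without the plate block the 1-day difference grew to -0.52 and the acute difference to -0.46 on the log2 scale, and neither passed the adjusted threshold.

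The share of cells with a Ucp2 UMI was also compared, at 1500 UMIs per cell. Averaged over the plates with both diets, it was 39.7% in NC and 33.3% at 1 day, 43.6% and 51.4% at 3 days, 41.5% and 40.6% at 1 week, 43.5% and 45.6% at 4 weeks, 50.7% and 56.3% at 9 weeks, and 47.4% and 53.7% at 16 weeks. By exact permutation, two-sided, of the diets among replicates within linked plates, p was 0.07 at 1 day, 0.0889 at 3 days, where 45 assignments allow no p below 0.0222, and 0.0667 at 9 weeks, which is the smallest p that 15 assignments allow. By the same exact permutation p was 0.8 at 1 week, 1.0 at 4 weeks and 0.1 at 16 weeks. At 4 weeks the 6 assignments cannot give a p below 0.167. All 6 Ucp2 shares had an adjusted p of at least 0.63 over the 42 comparisons of members and lengths. Without thinning, the 3-day share was 80.8% against 70.6% on plates 4 and 13 (exact permutation p = 0.0222, adjusted p = 0.408). Over all their plates, HFD cells of 3 days had a median of 3619 transcripts and NC cells 2749.9. These medians pool different sets of plates, so they do not give the depths behind the 2 shares. The unthinned share at 16 weeks was 79.4% against 69.3% (exact permutation p = 0.0333, adjusted p = 0.408).

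The fission genes showed no shift that passed the test. Dnm1l had log2 fold changes from -0.16 at 1 day to 0.20 at 4 weeks, with standard errors from 0.36 to 0.53. Its 9-week value of 0.03 moved to -1.15 without replicate M8 and to 0.62 without M7, and its 3-day value of -0.07 moved to -0.49 with the NC sums of plate 13 limited to the same weeks. In NC replicates it averaged 52.4 ± 36.9 CPM (SD, n = 19), and at 3 days 44.2 ± 9.52 CPM (n = 4). Fis1 was lower in all 6 of the 1-day sums than the mean of the controls of their plates, as were 5.35% of all genes tested. Its 1-day replicates were at 14.2, 67.2, 17.0, 19.5, 27.6 and 25.4 CPM, which stand for 1 to 4 transcripts each, and on each plate they overlapped the NC sums. The 1-day log2 fold change of Fis1 was -0.99 (SE 0.58), and its acute lengths lay below its chronic lengths by -0.83 (SE 0.42, edgeR unadjusted p = 0.0465, adjusted p = 0.779). Without plates 4 and 5 this difference was -0.36. At 4 weeks Fis1 was 0.25 above NC on the log2 scale, and -0.63 without those plates.

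Mff had the most transcripts of the fission genes. Its 6 replicates at 1 day ran from 119 to 152 CPM, each above the mean of the controls of its plate as in 2.22% of all genes tested, and the log2 fold change was 0.24 (SE 0.34). At 9 weeks its 2 replicates were at 169 and 166 CPM, and the log2 fold change was 0.37 (SE 0.29). At 16 weeks Mff had the largest difference of its lengths. The 5 replicates averaged 81.7 ± 35.8 CPM (SD, n = 5) against 119 ± 60.1 CPM in NC (n = 19), and the log2 fold change was -0.53 (SE 0.24). Of the 10 sums, 7 lay below the mean of the controls of their plate, and 24.4% of all genes tested had at least as many below. edgeR gave an unadjusted p of 0.0278 and an adjusted p of 1.00. Leaving out the 16-week replicate M5 of plates 10 to 12 gave -0.43, and leaving out M6 gave -0.74. Without plates 4 and 5 the log2 fold change of Mff went from 0.16 to -0.48 at 4 weeks and from 0.14 to 0.86 (SE 0.46) at 3 days. With the NC sums of plate 13 limited to the same weeks, the 3-day value was -0.33.

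**Figure D2:**
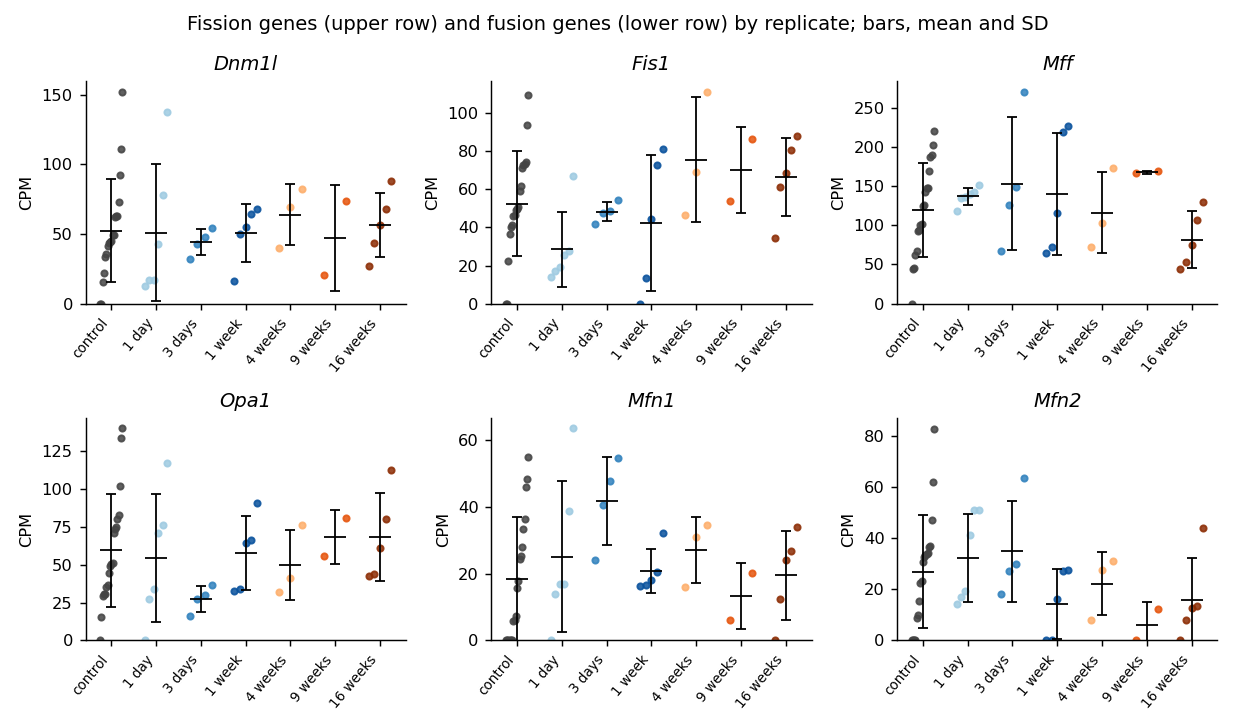
CPM of each replicate (points) for Dnm1l, Fis1 and Mff (upper row) and Opa1, Mfn1 and Mfn2 (lower row), by length of HFD; black bars are the mean and SD. The points of every length overlap those of the controls in each panel, and the 4 replicates of 3 days lie at 15.9 to 36.6 CPM for Opa1.

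Opa1 at 3 days had the smallest p of the 42 comparisons. On plate 13 the 3-day sums were at 27.1 and 15.9 CPM, and the 4 NC sums were at 140, 71.3, 50.7 and 82.8 CPM. On plate 4 the 3-day sums were at 31.0 and 37.8 CPM beside 134 CPM in the NC sum. On plate 5, with no NC sum, they were at 44.6 and 16.5 CPM. All 4 of the 3-day sums with a control lay below every NC sum of their plate, as in 1.02% of the 11081 genes tested. The counts were small: the 6 sums of 3 days held 14 Opa1 transcripts in all, and the NC sums of plates 4 and 13 held 16, of which 4 came from the 7 cells of plate 4. The log2 fold change was -1.58 (SE 0.55), a fold of 0.33 with a 95% interval from 0.16 to 0.70. The unadjusted p of edgeR was 0.00379 and the adjusted p 0.703. At 1500 UMIs per cell, the share with an Opa1 UMI, averaged over plates 4 and 13, was 3.76% at 3 days and 13.4% in NC (exact permutation p = 0.0222, the smallest that 45 assignments allow, adjusted p = 0.63). In this average the 7 NC cells of plate 4 weighed as much as all NC cells of plate 13. Over the cells of all plates the shares were 4.01% at 3 days and 7.06% in NC. Without the NC sum of plate 4 the log2 fold change was -1.55, and without plates 4 and 5 it was -1.69 with an unadjusted p of 0.0557. Without the plate block it was -0.87 with an unadjusted p of 0.0450, and over all alternatives it ran from -1.84 to -0.87. A fit of 3 days and NC on plates 4 and 13 alone, the plates that held both, gave no value, because Opa1 fell under 30 transcripts there.

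The other lengths of Opa1 had smaller differences. At 1 day it was 0.98 above NC on the log2 scale (SE 0.59), and -0.061 without the plate block, where the NC sums of plates 6 and 8 held 3 and 7 transcripts, and it averaged 54.4 ± 42.1 CPM (SD, n = 6). At 1 week it was -0.57 (SE 0.45), and 5 of the 5 sums lay below the mean of the controls of their plate, as in 4.02% of all genes tested. The 1-week value turned to 0.088 without the plate block and was -1.03 without plates 4 and 5. Averaged over the plates with both diets, the share at 1 week was 6.34% against 11.6% (exact permutation p = 0.0556, adjusted p = 0.63). At 4 weeks the log2 fold change was -0.72 (SE 0.54), and it turned to 0.49 (SE 0.95) without plates 4 and 5. On plate 1 the 4-week sum was at 41.2 CPM and the NC sum at 29.1 CPM, and on plate 4 the 4-week sums were at 36.2 and 88.3 CPM beside 134 CPM in the NC sum of 7 cells. At 9 weeks the log2 fold change was -0.14 (SE 0.42) and at 16 weeks 0.16 (SE 0.32). The acute and chronic lengths differed by -0.07 (SE 0.46).

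**Figure D3:**
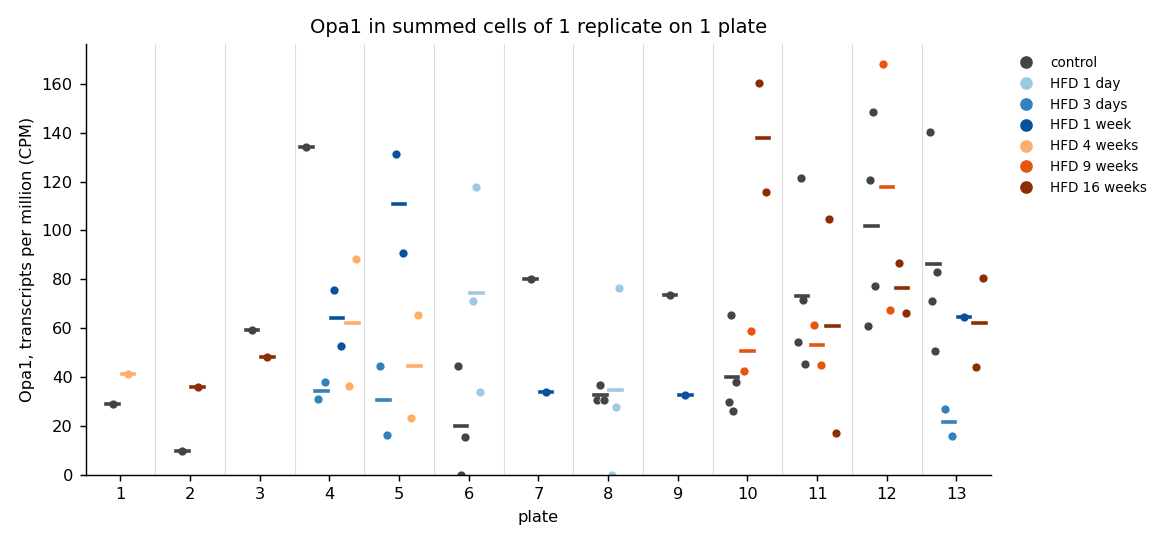
Opa1 in CPM (vertical axis) in each of the 68 sums, by plate (horizontal axis) and diet (colour); short bars are means of a diet on a plate. On plates 4 and 13 the 3-day sums lie at 15.9 to 37.8 CPM, below the control sums of the same plates at 50.7 to 140 CPM, and on other plates controls go down to 0.

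The mitofusins had the widest errors. Mfn1 was at 41.8 ± 13.2 CPM at 3 days (SD, n = 4) and 18.4 ± 18.6 CPM in NC (n = 19), and its log2 fold change at 3 days was 1.08 (SE 0.71), or 1.76 (SE 1.08) without plates 4 and 5. At 9 weeks 1 of the 2 replicates had 0 Mfn2 transcripts over its 3 plates, which allows up to 20.3 CPM by a floor of 3 counts, and the other had 2 transcripts, or 12.3 CPM. The NC sums of plates 10 to 12 ran from 0 to 102 CPM, so the diets overlapped. Averaged over these plates, Mfn2 was at 6.53 CPM at 9 weeks and 23.9 CPM in NC. All 6 of the 9-week sums lay below the mean of the controls of their plate, and the share of all genes that did so was not computed. At 16 weeks the 5 replicates ran from 0 to 43.9 CPM. The log2 fold change of Mfn2 was -1.80 at 9 weeks (SE 0.89, unadjusted p = 0.0425, adjusted p = 0.877) and -1.17 at 16 weeks (SE 0.58, unadjusted p = 0.0438, adjusted p = 1.00). The acute lengths lay above the chronic ones by 1.49 (SE 0.61, unadjusted p = 0.0142, adjusted p = 0.656), which was the smallest adjusted p of any member in this edgeR fit. Mfn2 rested on 117 transcripts in all, and leaving out 9-week replicate M7 moved its 9-week value to -1.06 and leaving out M8 moved it to -4.03, where the replicate left had 0 transcripts. Leaving out the 16-week replicate L4 moved its 16-week value to -0.75. By limma voom the values of Mfn2 were -0.86 at 9 weeks, -0.48 at 16 weeks and 0.81 for acute against chronic, and the last was 2.21 in edgeR without M8.

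**Figure D4:**
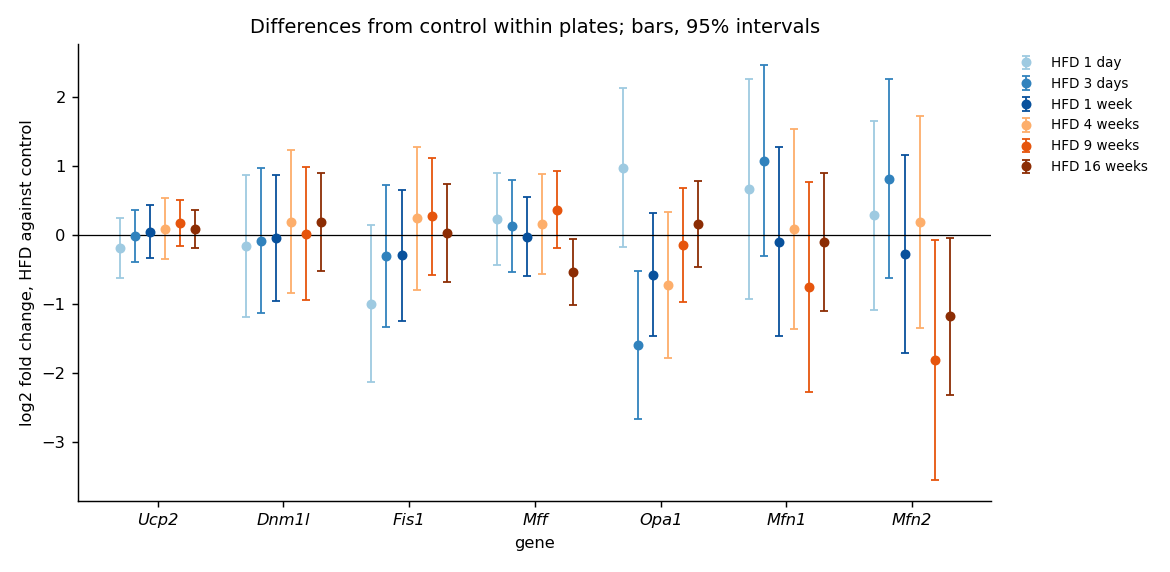
Log2 fold change of HFD against control within plates (vertical axis) for the 7 genes (horizontal axis) and 6 lengths (colour), with 95% intervals from the edgeR fit. Ucp2 has the narrowest intervals, all of which span 0, and the interval of Opa1 at 3 days, from -2.66 to -0.51, is the one farthest from 0.

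Transcripts of the fission genes outnumbered those of the fusion genes in most replicates. Dnm1l, Fis1 and Mff summed to more CPM than Opa1, Mfn1 and Mfn2 in 40 of 44 replicates, with a median share of 70.5% of the 6 genes. Mff carried this: Dnm1l and Fis1 without it summed to more than the fusion genes in 22 replicates, to less in 19 and to the same in 3, with medians of 97.7 and 97.5 CPM. By length the mean share ran from 66.1% ± 12.5 at 1 day (SD, n = 6) to 76.1% ± 7.74 at 9 weeks (n = 2), with 67.6% ± 14.5 in NC (n = 19) and 69.4% ± 6.88 at 3 days (n = 4), so the means lay within the spread of the NC replicates.

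**Figure D5:**
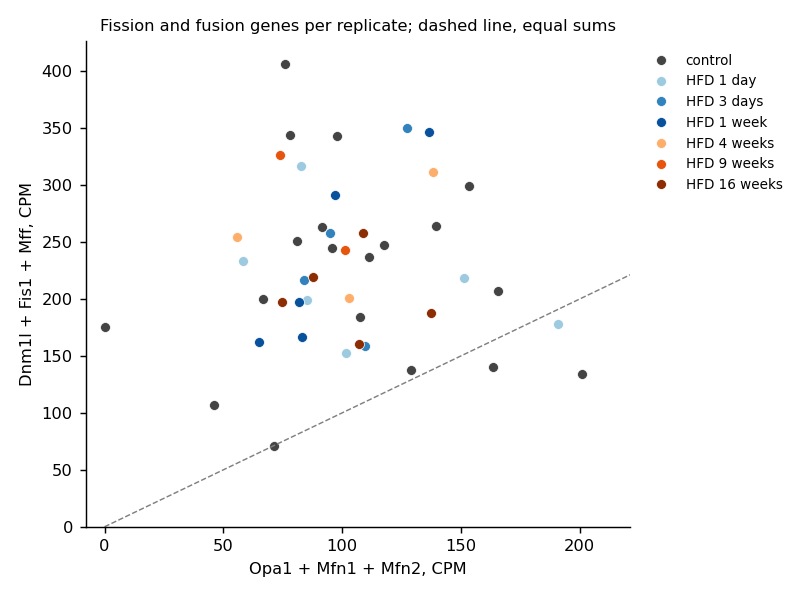
Summed CPM of Dnm1l, Fis1 and Mff (vertical axis) against that of Opa1, Mfn1 and Mfn2 (horizontal axis) for each of the 44 replicates, coloured by diet; the dashed line marks equal sums. In 40 replicates the point lies above the line, and the diets are intermixed.

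The wider pathways were read from gene lists. In 6 lists of carriers, fission, fusion and cristae, mitophagy, biogenesis and import, 80 genes were tested, 73 of them beside the members, and 0 passed the adjusted threshold in any comparison. Among carriers, Slc25a5, the ADP/ATP translocase, averaged 247 CPM and Slc25a3, the phosphate carrier, 240 CPM. Among fission genes, Ppp3ca, a calcineurin catalytic subunit that dephosphorylates DRP1, averaged 325 CPM, Dnm2, a dynamin, 227 CPM and Spire1, an actin nucleator, 130 CPM. In the fusion and cristae list, Immt, the core of the cristae junction complex, averaged 140 CPM, and the OPA1-processing proteases Yme1l1 and Oma1 averaged 95.6 and 85.7 CPM. At 3 days 12 of 19 tested genes of that list had a log2 fold change above 0, beside 60.7% of all genes, with a median of 0.47 beside 0.15 over all genes. In the fission list 13 of 16 were above 0 at 3 days, with a median of 0.16. The counts were 3 of 8 for carriers, 5 of 12 for mitophagy, 7 of 13 for biogenesis and 6 of 12 for import. The median of the fusion and cristae list was 0.20 at 1 day, -0.04 at 1 week, -0.03 at 4 weeks, -0.12 at 9 weeks and -0.09 at 16 weeks.

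The mitophagy list held the gene with the smallest adjusted p of all 6. Sqstm1, which encodes the autophagy receptor p62, averaged 161 CPM and had log2 fold changes of -0.69 at 3 days (SE 0.31), 0.44 at 4 weeks (SE 0.31) and -0.56 at 16 weeks (SE 0.22). Its test of any length gave an unadjusted p of 0.00137 and an adjusted p of 0.301. Tax1bp1 and Map1lc3b, also of autophagy, averaged 122 and 96.8 CPM. Ssbp1, which binds single-stranded mitochondrial DNA, averaged 104 CPM, Polg, its polymerase, 72.0 CPM, and Nrf1, a transcription factor of mitochondrial genes, 71.1 CPM. Rhot1, which links mitochondria to motors, averaged 82.8 CPM, Tomm7 47.0 CPM and Trak1 44.6 CPM. The numbers tested were 8 carriers, 16 fission genes, 19 of fusion and cristae, 12 of mitophagy, 13 of biogenesis and 12 of import and transport.

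Only Ucp2 and Mff had enough transcripts for a comparison of their pattern with other genes over the 68 sums. Among 2335 genes, log2(CPM + 10) centred per plate was most like that of Ucp2 for Tpp1 (Pearson r = 0.49), Clasp2 (0.43), Arhgdia (0.42), Rassf2 (0.42) and Pcmt1 (0.40). For Mff the 5 genes were Smox (0.54), Tle3 (0.51), Tpbgl (0.50), Tbc1d14 (0.49) and Stk38 (0.49). Ucp2 and Mff had r = 0.18 with each other. These values are over sums that share plates and replicates and have shallow depth, and they are a description only.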

How the data were processed

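The authors sorted cells into plates, trimmed barcodes with Cutadapt v.1.9.1, mapped reads to GRCm38/mm10 with STAR v.2.5.3a and counted them on genes with featureCounts v.1.6.1 within snakePipes v.1. The deposited values are estimated counts of transcripts per gene and well (expected counts): UMIs corrected for chance repeats among 4096 tags, so not whole and with no normalization. Inverting that correction gave whole UMIs, within 4.7e-10. A table of wells gave plate, diet, length and replicate identifier. Of the authors' filtered table only the gene list was used, and the values of its 843 columns were not.

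The 132 wells labelled 7_days were joined with those labelled 1_week. Identifiers recur on unlinked plates and there count as different replicates. Wells with at least 1500 transcripts were kept (1617 of 2496, median 2839.8 transcripts), and estimated counts were summed per replicate, length and plate (at least 5 cells, 68 sums, 1613 cells) and rounded. Sorting was of single cells, so no doublet caller was run. Genes with at least 30 transcripts (11081) were fitted by edgeR 4.0.16 in R 4.3.3 (quasi-likelihood test, TMM, plate as a block, all 7 diets in 1 fit) with Benjamini-Hochberg adjustment over all genes and a threshold of 0.05. The filter was set low because edgeR's defaults keep only Ucp2 and Mff of the members. Standard errors are the log2 fold change divided by the root of F, and 95% intervals are normal. In this fit the spread was shared almost wholly across genes, and 16 of 44 replicates contribute a sum from each of several plates. Its p-values are therefore likely too small and its intervals too narrow. Shares of cells with a UMI were the expected values after thinning to 1500 UMIs, which all 1617 cells reached (at 1 week they include a replicate of 4 cells that made no sum), compared by exact permutation. CPM in the text is a gene's transcripts scaled to the depth of its sum or replicate. Gene coordinates come from GENCODE M21. The scripts were tested on simulated data. Python 3.11.15, numpy 2.4.6, pandas 2.3.3 and scipy 1.17.1 were used.

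Genes named are the 7 members, the 3 most abundant genes of each list, any listed gene passing the test, and the 5 genes most like Ucp2 and Mff. The members, lists and tests were chosen with earlier results of these data known. Alternatives were the plate block, separate fits, DESeq2 1.42.0, its size factors, 2 other gene filters, limma 3.58.1 voom with correlated replicates, 2 cell filters and leaving out replicates. Leaving out the NC sum of plate 4, splitting plate 13 by weeks and leaving out plates 4 and 5 were added after seeing the data.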

Additional observations from a re-analysis of the deposited data

Results flagged for a closer look

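Of 28 groups of 4 to 6 replicates of a member, 2 had a replicate that stood apart from the others by its gap over the range of the group, and about 1 in 20 groups does so by chance. Fis1 at 1 day was at 67.2 CPM in replicate M6 of plate 6, against 27.6 CPM in the next of the 6 replicates, which is 4 transcripts. Mfn1 at 1 week was at 32.3 CPM in replicate M13 of plate 13, against 20.4 CPM in the next of the 5 replicates, which is 1 transcript.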

How the results depend on the processing

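No member passed the adjusted threshold under any of 31 alternative settings, 19 of which left out a replicate of 3 days to 16 weeks: 0 of 1668 member values were called, and the lowest adjusted p was 0.312, for Opa1 at 3 days by limma voom. The number of genes called over all genes did depend on the setting, and the cause was not tested. Without the plate block it was 3 at 1 day, 39 at 3 days, 18 at 1 week, 45 at 4 weeks, 0 at 9 weeks, 97 for any length and 4 for acute against chronic. DESeq2 called 0 genes at 3 days, 1 week, 4 weeks, 16 weeks and for any length, and 1 at 9 weeks, and its size factors in edgeR gave 8 at 1 week and 1 at 9 weeks. The filterByExpr defaults, which keep fewer genes, gave 0 at 3 days, 1 week, 4 weeks, 9 weeks, 16 weeks and for any length. Separate fits gave 0 at 3 days, 12 at 1 week and 0 at 4 weeks. limma voom gave 1 at 1 day, 1 at 3 days, 14 at 1 week, 4 at 4 weeks, 1 at 9 weeks, 9 at 16 weeks and 3 for acute against chronic. Without plates 4 and 5 the counts were 3 at 3 days, 12 at 1 week, 2 at 4 weeks and 2 for acute against chronic. Leaving out 1 replicate of the length compared, or the NC sum of plate 4, gave 1 to 9 genes at 3 days (1 without M24), 5 to 8 at 1 week (8 without M22 or M4), 10 to 11 at 4 weeks, 2 to 4 at 9 weeks, 2 to 5 at 16 weeks (2 without L4), and any 1 of the replicates left out gave 20 to 28 for any length. Replicates of another length moved 2 of these ranges, to 8 without M17 and 12 without M23 at 4 weeks and to 1 without L4 at 9 weeks.

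Of the 42 log2 fold changes of members over lengths, 24 turned sign under at least 1 setting, among them 3 of Ucp2. At 3 days the log2 fold change was 0.10 in the separate fit, 0.040 with no filter, 0.018 with wells of at least 1000 transcripts, 0.18 without plates 4 and 5, and -0.11 to 0.12 without 1 replicate. At 1 week it was -0.11 in the separate fit, -0.068 without the block, -0.077 by DESeq2, -0.062 with its size factors, -0.057 with filterByExpr, -0.041 by limma voom, -0.063 with wells of at least 1000 transcripts, -0.23 without plates 4 and 5, and -0.22 to 0.16 without 1 replicate. At 4 weeks it was -0.039 with sums of at least 10 cells. Opa1 without the block was -0.061 at 1 day, 0.088 at 1 week and 0.15 at 9 weeks, and without plates 4 and 5 it was 0.49 at 4 weeks. Without 1 replicate Opa1 ran from -0.43 to 0.14 at 9 weeks, from -0.075 to 0.34 at 16 weeks and from -0.24 to 0.016 for acute against chronic (0.0056 without M21). Dnm1l was -0.018 at 4 weeks with plate 13 split by weeks and 0.066 at 3 days by limma voom. At 9 weeks it was -0.18 without the block, -0.042 with wells of at least 1000 transcripts, -0.0042 with sums of at least 10 cells and -0.016 without plates 4 and 5. Without 1 replicate it ran from -0.20 to 0.0081 at 3 days and from -1.15 to 0.62 at 9 weeks. Fis1 at 4 weeks was -0.046 with sums of at least 10 cells, -0.63 without plates 4 and 5, -0.014 without the NC sum of plate 4 and -0.12 to 0.81 without 1 replicate. Mff at 3 days was -0.064 with DESeq2's size factors, -0.053 with filterByExpr, -0.028 with sums of at least 10 cells, -0.33 with plate 13 split by weeks and -0.26 to 0.38 without 1 replicate. Mff at 4 weeks was -0.084 in the separate fit, -0.056 without the block, -0.48 without plates 4 and 5 and -0.21 to 0.50 without 1 replicate. Depth limits the dynamics genes most: Mfn2 rests on 117 transcripts and Mfn1 on 127. No paired analysis was possible because the identifiers do not link an HFD sample to an NC sample, and the plate was the block.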
